A study of Mus musculus with 9 samples.

Results

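E2F transcription factors and the retinoblastoma (RB) family of pocket proteins form the switch that cells use to enter S phase. The 10 genes described here are E2f1 to E2f8, Rb1 and Rbl1, taken by symbol from a table of 53170 named genes. All 10 passed the filter on low values (a mean of 0.5 FPKM or more, a level scaled for transcript length and library depth), as did 12012 genes in all. RNA was counted in 9 libraries of RAW264.7, a mouse macrophage-like line transformed by a leukemia virus and labelled wild type throughout, in 3 groups of 3. The groups were cells on a piezoelectric membrane labelled BMC that also received pulsed ultrasound of low intensity (BMC+LIPUS), cells on that membrane without ultrasound (BMC), and a blank control. Every group was grown in αMEM with 10% fetal bovine serum. The sources used here do not say what BMC stands for, which ultrasound settings and culture times were used, or whether replicate libraries were grown separately. A p-value therefore gauges library-to-library spread, and that spread may be technical. No group had ultrasound without the membrane.

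In quiescent or early G1 cells, pocket proteins sit on E2Fs and hold their target promoters silent. Cyclin D and cyclin E kinases phosphorylate the pocket proteins, the E2Fs are released, and genes for DNA replication are transcribed. E2F1, E2F2 and E2F3 are usually classed as activators, and they bind RB. E2F4 and E2F5 work mainly as repressors together with the pocket proteins, p107 (Rbl1) and p130 (Rbl2) among them. E2F6, E2F7 and E2F8 lack the pocket-binding segment and repress without RB, E2F6 through a polycomb-type complex and E2F7 and E2F8 as factors with a duplicated DNA-binding domain that shut the G1/S program off later in S phase. Several genes of the family are themselves E2F targets, so their transcripts rise and fall with the cell cycle.

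The regions before the start sites of these genes are shown because several of the genes are themselves E2F targets. RefSeq windows on GRCm38.p6, each from 250 bases before to 50 bases after a start, were at hand for 7 of the 10 genes, and E2f2 and E2f3 have a pair each. They were searched on both strands for the E2F words TTTGGCGC, TTTCCCGC, TTTCGCGC and TTTGCCGC. A word was found in 4 of the 7 genes, in Rbl1, E2f7, E2f3 and E2f2. Over genes with a window, 5.09% of the 8376 tested and 2.6% of all 27025 held a word. Capitals mark the word in each of the following stretches, written 5′ to 3′ on the gene's own strand.
Rbl1, chr2:157204535-157204634, minus strand, the 100 bases before the start: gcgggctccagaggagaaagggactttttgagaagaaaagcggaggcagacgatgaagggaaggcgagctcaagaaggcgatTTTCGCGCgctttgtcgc
E2f7, chr10:110745189-110745288, plus strand, positions -250 to -151: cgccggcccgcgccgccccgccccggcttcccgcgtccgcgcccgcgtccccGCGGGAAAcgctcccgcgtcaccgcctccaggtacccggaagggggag
E2f3, upstream start, chr13:29986064-29986163, minus strand, the 100 bases before the start: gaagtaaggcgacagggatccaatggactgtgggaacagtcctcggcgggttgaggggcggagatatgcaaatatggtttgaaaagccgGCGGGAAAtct
E2f2, chr4:136172302-136172323, plus strand, positions 29 to 50 after the start: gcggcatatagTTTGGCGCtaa
E2f1, chr2:154569427-154569526, minus strand, the 100 bases before the start, with no word in its window: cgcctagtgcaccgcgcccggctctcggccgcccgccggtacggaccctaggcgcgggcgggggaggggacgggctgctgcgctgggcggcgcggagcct

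The word stands at -18 to -11 in Rbl1 and, read on the opposite strand, at -11 to -4 in E2f3 and at -198 to -191 in E2f7. In E2f2 it lies after the start, at 40 to 47. The windows of E2f1, E2f6 and E2f8 and the downstream windows of E2f2 and E2f3 held none of the 4 words, which says only that these letters are not in those windows. Transcripts of Rbl1, E2f7 and E2f2, with a word, and of E2f1, E2f6 and E2f8, without one, were lower on the membrane. E2f3, with a word, was not called. A link between the words and these changes was not tested.

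On the BMC membrane 7 of the 10 genes fell against control and none was called higher, where 18.8% of all tested genes were called lower and 17.2% higher (35.9% in either direction). The genes that fell were the activators E2f1 and E2f2, the repressors E2f6, E2f7 and E2f8, and both pocket protein genes. E2f3, E2f4 and E2f5 were not called. The falls covered activators and repressors alike, and each class also held a gene that was not called. Calls rest on edgeR's quasi-likelihood test, with Benjamini-Hochberg adjustment over all 12012 genes and a threshold of 0.05 on the adjusted p. In bulk RNA, fewer cycling cells and less of a transcript per cell cannot be told apart.

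**Figure D1:**
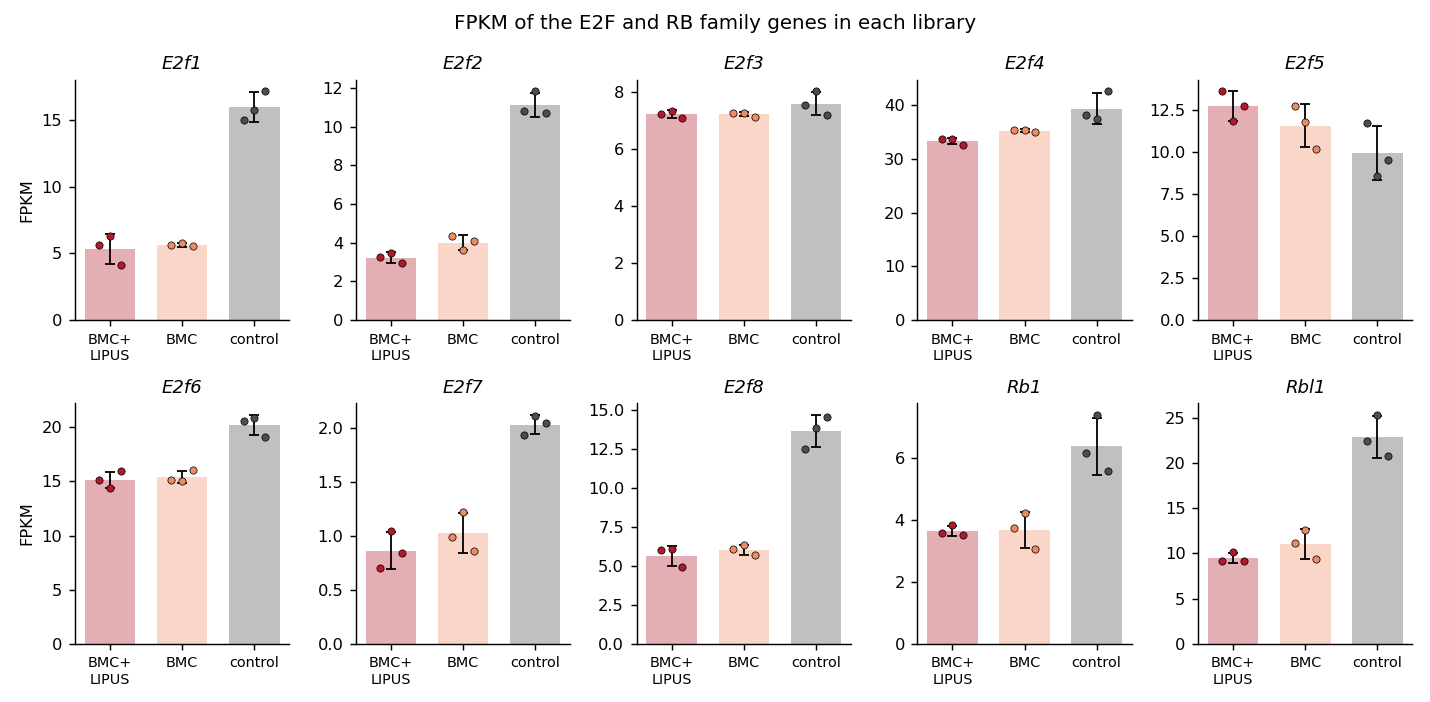
FPKM of each E2F and RB family gene (vertical axes, each from 0) in the BMC+LIPUS, BMC and control libraries, with points for single libraries, bars for group means and whiskers for SD (n = 3). E2f1 averages 5.33, 5.64 and 15.97 FPKM in BMC+LIPUS, BMC and control, while E2f3 averages 7.22, 7.22 and 7.59.

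Among the activators, E2f1 drives S-phase entry and can also trigger apoptosis. It stood at 5.62, 6.27 and 4.11 FPKM in the BMC+LIPUS libraries, 5.60, 5.80 and 5.53 in BMC and 14.97, 15.77 and 17.17 in control. Every membrane library was below every control library. E2f1 was 2.71-fold lower in BMC than in control (log2 change -1.44, SE 0.11, edgeR adjusted p = 9.095e-08), and it ranked 89 from the lowest log2 change among the 12012 tested genes. In BMC+LIPUS against control it was 2.86-fold lower (log2 change -1.51, SE 0.11, edgeR adjusted p = 3.024e-08).

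E2f2, the other activator that fell, had 3.27, 3.49 and 2.94 FPKM in BMC+LIPUS, 4.35, 3.6 and 4.08 in BMC and 10.80, 11.84 and 10.72 in control. The 3 groups did not overlap, with control highest and BMC+LIPUS lowest. BMC was 2.66-fold below control (log2 change -1.41, SE 0.09, edgeR adjusted p = 1.009e-08) and BMC+LIPUS 3.28-fold below it (log2 change -1.71, SE 0.09, edgeR adjusted p = 7.871e-10).

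E2f3 makes a longer product that acts as an activator and a shorter one from the downstream start, and counts per gene do not separate them. Its levels were 7.23, 7.35 and 7.08 FPKM in BMC+LIPUS, 7.27, 7.26 and 7.14 in BMC and 7.55, 8.03 and 7.20 in control. The groups overlapped. The log2 change of E2f3 was -0.01 in BMC against control, with a 95% interval from -0.16 to 0.14 (edgeR adjusted p = 0.931), and 0.00 in BMC+LIPUS against control, with an interval from -0.15 to 0.14 (edgeR adjusted p = 0.969). Those intervals leave out falls of the size measured for E2f1 and E2f2. Per library, the FPKM ratio of E2f1 to E2f3 was 0.777, 0.853 and 0.581 in BMC+LIPUS, 0.770, 0.799 and 0.775 in BMC and 1.98, 1.96 and 2.38 in control, so E2f1 was the higher of the pair in each control library and the lower in each membrane library.

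Of the repressors that bind pocket proteins, E2f4 was the most abundant gene of the family in every group. It had 33.63, 33.66 and 32.64 FPKM in BMC+LIPUS, 35.38, 35.44 and 34.93 in BMC and 38.07, 37.34 and 42.58 in control. The groups did not overlap, but the differences were small. In BMC against control E2f4 missed the threshold (log2 change -0.09, 95% interval -0.23 to 0.04, edgeR adjusted p = 0.278). In BMC+LIPUS against control it was just called lower (log2 change -0.17, SE 0.06, edgeR adjusted p = 0.044), a call that was lost under 11 of 19 other settings, among them the removal of any 1 of the 9 libraries except control replicate 2.

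E2f5, its closest relative, went the other way. Its levels were 13.61, 11.81 and 12.71 FPKM in BMC+LIPUS, 12.71, 11.80 and 10.18 in BMC and 11.73, 8.56 and 9.54 in control. BMC+LIPUS lay above control in every library, by a narrow margin, and BMC overlapped both. E2f5 rose 1.35-fold in BMC+LIPUS against control (log2 change 0.43, SE 0.12, edgeR adjusted p = 0.00862), which was the only rise among the 10 genes, and the call was lost without control replicate 2 (log2 change 0.32, edgeR adjusted p = 0.0566). In BMC against control the log2 change was 0.29 (SE 0.12, edgeR adjusted p = 0.0783), called under 4 of 19 other settings, among them without BMC replicate 3 (0.36, edgeR adjusted p = 0.0424) and without control replicate 1 (0.42, edgeR adjusted p = 0.0187). The gene span of E2f5 overlaps that of Rbis on the opposite strand in GENCODE M21, and shared exons were not looked up. The library kit was stranded, but the sources used here do not say how strand was treated in counting, so it is unknown whether reads of the pair were told apart. Rbis held 299 to 429 counts a library and was not called (log2 change 0.19 in BMC+LIPUS against control, edgeR adjusted p = 0.135), and its part in the E2f5 value was not tested.

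The repressors that do not bind pocket proteins all fell, by unequal amounts. E2f6 had 15.10, 14.38 and 15.93 FPKM in BMC+LIPUS, 15.14, 15.01 and 16.05 in BMC and 20.62, 20.87 and 19.13 in control. All membrane libraries were below all control libraries, and E2f6 was 1.26-fold lower in BMC than in control (log2 change -0.33, SE 0.07, edgeR adjusted p = 0.00111) and 1.27-fold lower in BMC+LIPUS (log2 change -0.35, SE 0.07, edgeR adjusted p = 0.000534). In BMC that was the smallest fall of the 7.

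E2f7 was the least abundant gene of the family, with 0.70, 1.04 and 0.84 FPKM in BMC+LIPUS, 0.99, 1.22 and 0.86 in BMC and 1.93, 2.11 and 2.04 in control. These levels rest on 96 to 119, 99 to 161 and 249 to 315 counts a library in the same groups. It was 1.89-fold lower in BMC than in control (log2 change -0.92, SE 0.15, edgeR adjusted p = 0.0001575) and 2.26-fold lower in BMC+LIPUS (log2 change -1.18, SE 0.15, edgeR adjusted p = 1.242e-05). E2f8, its partner in repression, had 5.98, 6.05 and 4.90 FPKM in BMC+LIPUS, 6.05, 6.33 and 5.69 in BMC and 12.50, 13.82 and 14.55 in control. Membrane and control libraries were again apart, and E2f8 was 2.16-fold lower in BMC (log2 change -1.11, SE 0.09, edgeR adjusted p = 8.504e-08) and 2.30-fold lower in BMC+LIPUS (log2 change -1.20, SE 0.09, edgeR adjusted p = 2.117e-08). The E2f7 to E2f8 ratio of FPKM ran from 0.117 to 0.172 in BMC+LIPUS, 0.151 to 0.193 in BMC and 0.140 to 0.154 in control, with overlap between the groups.

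Both pocket protein genes fell as well. Rb1, which encodes the retinoblastoma protein, had 3.59, 3.83 and 3.51 FPKM in BMC+LIPUS, 3.74, 4.22 and 3.07 in BMC and 6.17, 7.40 and 5.59 in control. It was 1.66-fold lower in BMC (log2 change -0.73, SE 0.11, edgeR adjusted p = 0.0001174) and 1.68-fold lower in BMC+LIPUS (log2 change -0.74, SE 0.11, edgeR adjusted p = 7.182e-05). The gene span of Rb1 overlaps those of Lpar6 and Rcbtb2 on the opposite strand in GENCODE M21, and shared exons were not looked up. Lpar6 and Rcbtb2 hold 428 to 901 and 263 to 715 counts a library, against 237 to 738 for Rb1. In BMC against control, Lpar6 had a log2 change of 0.33 (edgeR adjusted p = 0.0601) and Rcbtb2 fell by 0.52 on the log2 scale (edgeR adjusted p = 0.0056). Lpar6 rose by 0.83 on that scale in BMC+LIPUS against control (edgeR adjusted p = 8.859e-05), where Rcbtb2 fell by 0.42 (edgeR adjusted p = 0.015). Their part in the Rb1 values was not tested.

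Rbl1, which encodes p107 and is itself an E2F target, had 9.18, 10.13 and 9.13 FPKM in BMC+LIPUS, 11.20, 12.64 and 9.38 in BMC and 22.47, 25.36 and 20.78 in control. Control libraries were at least 20.78 FPKM and membrane libraries at most 12.64. BMC was 1.98-fold below control (log2 change -0.98, SE 0.09, edgeR adjusted p = 7.652e-07) and BMC+LIPUS 2.30-fold below it (log2 change -1.20, SE 0.09, edgeR adjusted p = 5.362e-08).

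In BMC+LIPUS against control, 8 of the 10 genes were called lower and E2f5 was called higher, where 21.9% of tested genes were called lower and 21.1% higher (43% in either direction). The BMC+LIPUS and BMC comparisons share the control libraries, so their values are given side by side only. The groups did not overlap in scaled counts in 9 genes for BMC+LIPUS against control, where this held for 51.7% of all tested genes, and in 8 genes for BMC against control, where it held for 47.6%. The median log2 change of the 10 genes was -0.96 in BMC+LIPUS against control and -0.83 in BMC against control, beside 0.01 over all tested genes in each comparison.

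**Figure D2:**
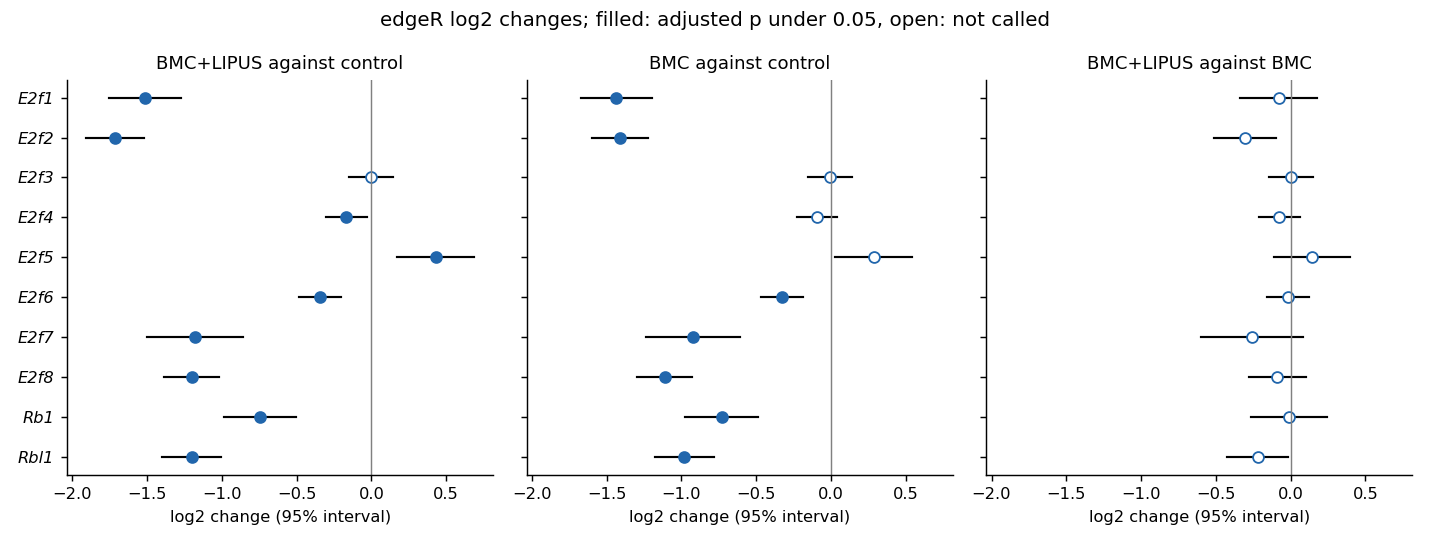
Log2 change (horizontal axis) with its 95% interval for each family gene in BMC+LIPUS against control, BMC against control and BMC+LIPUS against BMC, from edgeR. Filled points were called at an adjusted p under 0.05, and the right panel has none, its log2 changes running from -0.30 for E2f2 to 0.14 for E2f5.

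The addition of ultrasound to the membrane gave no call in the family. EdgeR called 0 of the 10 genes in BMC+LIPUS against BMC, where it called 0.108% of all tested genes, 13 in number. DESeq2 also called 0 of the 10, and 74 genes in all. At an unadjusted p under 0.05 there were E2f2 and Rbl1, 2 of the 10, beside 11.5% of all tested genes. E2f2 was 1.24-fold lower with ultrasound (log2 change -0.30, 95% interval -0.51 to -0.10, edgeR adjusted p = 0.238), and all 3 BMC+LIPUS libraries were below all 3 BMC libraries. For Rbl1 the log2 change was -0.22 (95% interval -0.42 to -0.02, edgeR adjusted p = 0.399), and the groups overlapped. E2f7 had -0.26 (95% interval -0.60 to 0.09, edgeR adjusted p = 0.577) and E2f1 -0.08 (95% interval -0.34 to 0.18, edgeR adjusted p = 0.854). The E2f1 value took its sign from 1 library, since without BMC+LIPUS replicate 3 it was 0.07. Groups did not overlap in scaled counts in 2 of the 10 genes, E2f2 and E2f4, beside 16% of all tested genes.

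Activator and repressor transcripts were also summed per library, as FPKM values per length. The activators E2f1, E2f2 and E2f3 together made 16.12, 17.11 and 14.13 FPKM in BMC+LIPUS, 17.22, 16.66 and 16.75 in BMC and 33.32, 35.64 and 35.09 in control. Repressors E2f4 to E2f8 together made 69.02, 66.94 and 67.02 FPKM in BMC+LIPUS, 70.27, 69.80 and 67.71 in BMC and 84.85, 82.70 and 87.84 in control. Activators thus held 18.9% ± 1.47 of the E2F transcripts in BMC+LIPUS, 19.6% ± 0.292 in BMC and 29.0% ± 1.02 in control (SD, n = 3 each). Both sums were lower in each membrane library than in any control library, and the activator sum by the larger factor.

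**Figure D3:**
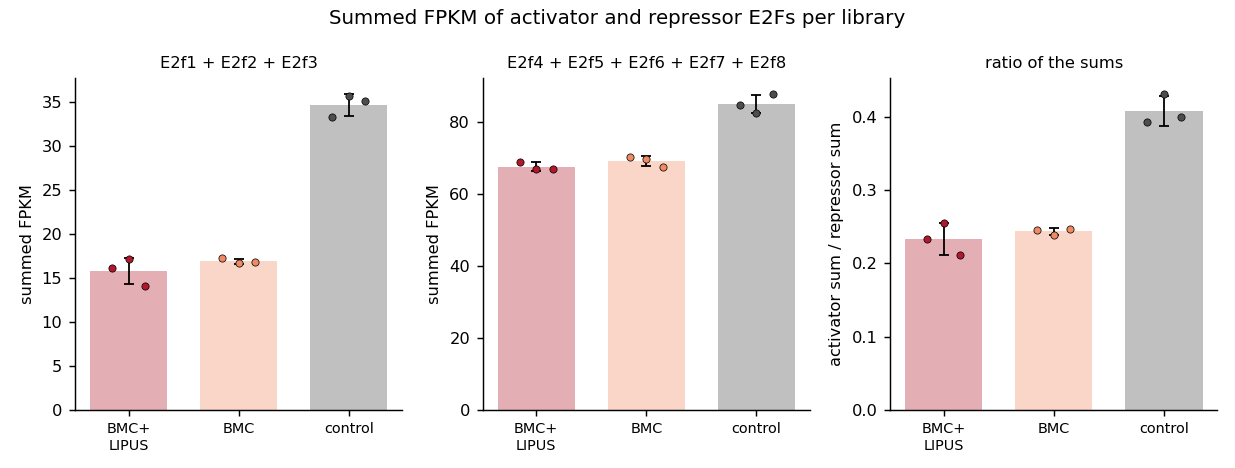
Summed FPKM of the activator E2Fs, of the repressor E2Fs and the ratio of the sums (vertical axes from 0) per library, with bars for group means and whiskers for SD (n = 3). The ratio averages 0.233 in BMC+LIPUS, 0.244 in BMC and 0.408 in control.

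Within the repressors the classes with and without pocket binding differed. The pocket-binding pair E2f4 and E2f5 summed to 45.35 to 47.24 FPKM in BMC+LIPUS, 45.11 to 48.09 in BMC and 45.90 to 52.12 in control, with overlap. E2f6, E2f7 and E2f8 summed to 21.47 to 21.78, 22.18 to 22.60 and 35.05 to 36.80 FPKM in the same groups, with none. The median log2 change in BMC against control was -1.41 for the 3 activators and -0.33 for the 5 repressors, and a class of so few genes that includes E2f3 on one side and E2f5 on the other is not described by its median alone. By their log2 changes, E2f1, E2f2 and E2f8 moved by more than 1, E2f7, Rb1 and Rbl1 by 0.73 to 0.98 and E2f6 by 0.33.

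Falls of this size changed the order of the levels within the family. In control the order by mean FPKM was E2f4, Rbl1, E2f6, E2f1, E2f8, E2f2, E2f5, E2f3, Rb1 and E2f7. The ranges of single libraries overlapped between Rbl1 and E2f6, between E2f2 and E2f5 and between E2f3 and Rb1. In BMC+LIPUS it was E2f4, E2f6, E2f5, Rbl1, E2f3, E2f8, E2f1, Rb1, E2f2 and E2f7, and only E2f8 and E2f1 overlapped among neighbours. BMC differed from that order in the places of E2f2 and Rb1, which overlapped there, as did E2f5 with Rbl1 and E2f8 with E2f1. E2f3 was thus the lowest activator in control and the highest on the membrane with and without ultrasound.

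The genes whose levels across the 9 libraries ran closest to a member were found by the root mean square (RMS) difference of log2 CPM, centred per gene, among 10220 tested genes. Those near E2f2 included Bahcc1, at an RMS difference of 0.087, and the checkpoint adaptor Clspn, at 0.101. For E2f1 they were Haus4 at 0.114, the recombination gene Rad54l and again Bahcc1. E2f8 lay closest to Casp2 at 0.070, the helicase subunit Mcm7 and the chromatin assembly subunit Chaf1a, and E2f7 to Ccdc14 at 0.087, the transcription factor Mybl2 and Rftn1. Rbl1 lay closest to Ulbp1 at 0.085, B4galt1 and Topbp1, and Rb1 to Camk1d at 0.071, Osbpl2 and Ttf2. E2f6 had Ankrd10 at 0.037, Fbxl14 and Slc25a37, and E2f4 had Ppm1g at 0.029, Nol7 and Arrb2. The nearest to E2f5 were Zscan25 at 0.083, Tnfaip1 and Rps18. The groups set most of the range of the members that fell, so this likeness mainly describes a shared difference between membrane and control.

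Genes that act with the family were followed in lists. The DP proteins, encoded by Tfdp1 and Tfdp2, are the partners with which E2F1 to E2F6 bind DNA, and Rbl2 encodes the pocket protein p130. Of these 3 genes, Tfdp1 and Rbl2 fell in BMC against control, where 18.8% of all tested genes were called lower, and Tfdp2 was not called. Tfdp1 averaged 76.1 FPKM in BMC and 103 in control (log2 change -0.38, SE 0.05, edgeR adjusted p = 3.489e-05). Rbl2 averaged 2.42 FPKM in BMC and 4.2 in control, 1.66-fold lower (log2 change -0.73, SE 0.10, edgeR adjusted p = 2.626e-05). For Tfdp2 the log2 change was -0.40 (SE 0.18, edgeR adjusted p = 0.0933), called under 5 of 18 other settings.

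Among 9 cyclins and kinases that phosphorylate pocket proteins, 5 fell and 1 rose in BMC against control. Of all tested genes, 18.8% were called lower and 17.2% higher in that comparison. Ccne2, a cyclin E gene and E2F target, averaged 9.40 FPKM in BMC and 18.8 in control (log2 change -0.94, SE 0.09, edgeR adjusted p = 5.978e-07). Its kinase Cdk2 was 1.54-fold lower and Ccna2 1.37-fold lower. Ccnd2, a D-type cyclin, went against the list and rose 2.12-fold to 4.39 ± 0.863 FPKM in BMC, against 2.16 ± 0.248 in control (log2 change 1.08, SE 0.15, edgeR adjusted p = 4.009e-05). Of the 7 CDK inhibitors, 4 were tested, 3 rose and 1 fell, beside the same shares of all tested genes. Cdkn1a (p21) rose 1.73-fold, to 55.9 ± 4.49 FPKM in BMC against 33.7 ± 2.73 in control (edgeR adjusted p = 6.251e-07), Cdkn1b (p27) 1.30-fold and Cdkn2d 1.24-fold, while Cdkn2c was 1.42-fold lower. The groups overlapped for Cdkn1b and Cdkn2d, and their calls were lost under 7 and 9 of 19 other settings. Cdkn1c, Cdkn2a and Cdkn2b had 0 counts in all 9 libraries.

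The MuvB core joins E2F4 or E2F5 and p107 or p130 in the DREAM repressor of quiescent cells, and later works with MYBL2 and FOXM1 as an activator of G2/M genes. Of 7 such genes 4 fell in BMC, where 18.8% of all tested genes were called lower. Mybl2 was 1.91-fold lower, with 9.63 FPKM in BMC and 19.2 in control (edgeR adjusted p = 4.824e-06), and Foxm1 1.49-fold lower, while the MuvB subunits Lin54 and Lin52 fell by 0.37 and 0.39 on the log2 scale. In the list of 12 partners of the E2F6 repressor complex, 4 fell and 2 rose, with a median log2 change of -0.12, where 18.8% of all tested genes were called lower and 17.2% higher. The share that rose is near that of all genes. Cbx3, Ehmt2 and Ehmt1 were 1.43-fold, 1.31-fold and 1.28-fold lower, and Mga and Rnf2 rose 1.23-fold and 1.24-fold. Among the 12 corepressors, 4 were called lower and 2 higher, with a median of -0.03, and here too the share that rose is near the 17.2% of all genes. Smarca2, Arid4a and Suv39h1 were 1.51-fold, 1.44-fold and 1.38-fold lower, and Sap30 and Hdac1 rose 1.47-fold and 1.16-fold, the Hdac1 call being lost under 12 of 19 other settings. Of 5 genes for ubiquitin ligase subunits, activators or inhibitors, 3 fell, beside the 18.8% of all tested genes called lower. Fbxo5, which encodes EMI1, an inhibitor of the anaphase-promoting complex, was 1.77-fold lower. Skp2 and Ccnf, F-box subunits of SCF ligases, were 1.44-fold and 1.34-fold lower. Cdc20 (edgeR adjusted p = 0.401) and Fzr1, activators of the anaphase-promoting complex, were not called.

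All 50 genes of a list of textbook G1/S targets of E2Fs fell in BMC against control, with a median log2 change of -1.10 and a range from -1.73 to -0.51. Over all tested genes 18.8% were called lower and 17.2% higher, and the median was 0.01. The G1/S list overlaps replication genes already known to fall in these libraries when it was written, so its direction is not independent evidence. Dtl, Msh6 and Dnmt1 were among those with the smallest p. Dtl, which targets CDT1 for destruction, averaged 3.38 FPKM in BMC and 10.1 in control, 2.85-fold lower (edgeR adjusted p = 3.261e-09). The maintenance methyltransferase Dnmt1 averaged 29.2 FPKM in BMC and 73.95 in control, 2.43-fold lower (edgeR adjusted p = 3.948e-09), and the mismatch repair gene Msh6 was 1.99-fold lower. Of 28 G2/M genes 21 fell and none was called higher, with a median of -0.37, beside the same shares and median of all tested genes. Among the 21 were Bub1b, Ttk, Aurkb and Cdc25b at 1.57-fold, 1.57-fold, 1.53-fold and 1.5-fold lower. In BMC+LIPUS against BMC no G1/S target was called, and the median was -0.23 with all 50 log2 changes below 0, where 50.6% of tested genes were below 0. The 50 genes share the same libraries and are not replicates of the ultrasound comparison, so their common direction was not tested. Ccne2 came closest to a call there among the listed genes named here, with 6.62 FPKM in BMC+LIPUS and 9.40 in BMC (log2 change -0.50, SE 0.09, edgeR adjusted p = 0.0526).

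**Figure D4:**
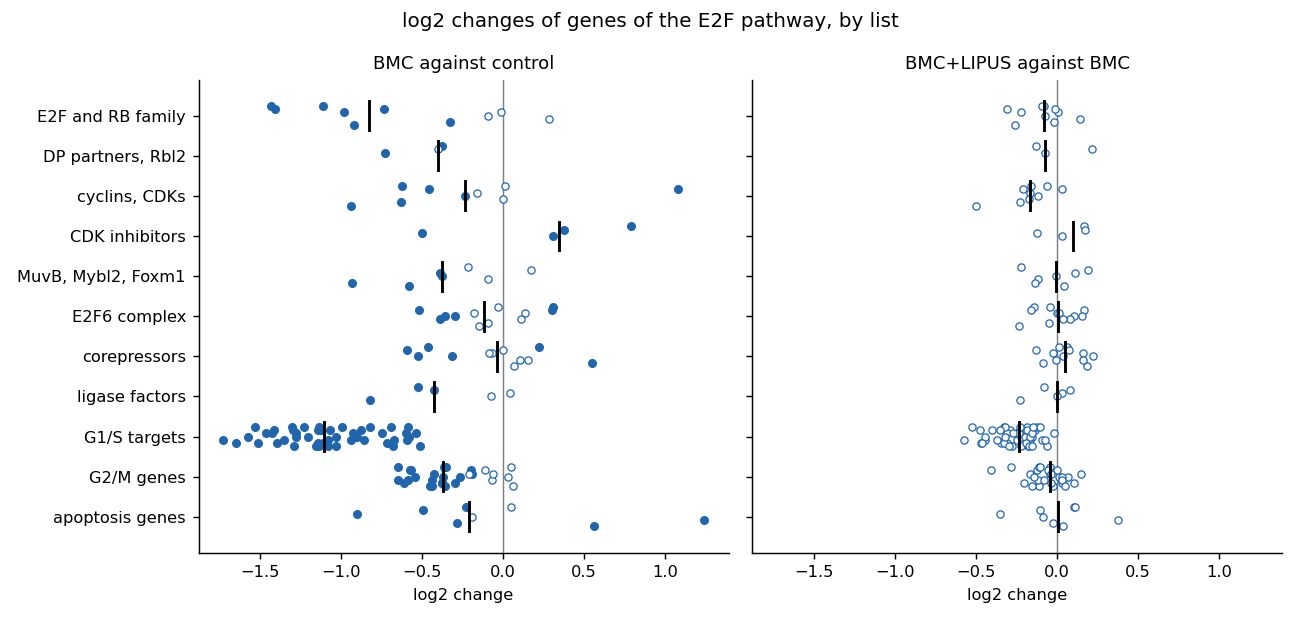
Log2 change (horizontal axis) of each tested gene of the E2F pathway lists in BMC against control (left) and BMC+LIPUS against BMC (right), with filled points called by edgeR and black bars at list medians. In the left panel the G1/S targets have a median of -1.10 and the E2F and RB family one of -0.83.

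Library totals ran from 12675417 to 16574322 counts. All 10 macrophage markers, among them Adgre1, Cd68, Csf1r, Itgam, Lyz2, Spi1, Ptprc, Fcgr3 and Cd14, were above the filter and summed to 7429.73 to 7678.65 FPKM in BMC+LIPUS, 7240.15 to 7994.59 in BMC and 6615.17 to 7393.81 in control. Lyz2 alone averaged 5384.7 FPKM in BMC+LIPUS, 5563.7 in BMC and 5194.3 in control, so the sums mostly reflect that gene. In BMC against control 3 of the 10 markers, Lyz2, Spi1 and Cd14, were called higher and 3 lower, Cd68 and Ptprc among these. Of 7 fibroblast markers 5 were at 0 counts throughout and only Pdgfrb passed the filter, at 1.21 FPKM in BMC and 0.610 in control, and no lymphocyte, epithelial or endothelial marker passed it, with Cd3e, Epcam and Cdh1 among the defining genes at 0 counts.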

How the data were processed

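Per the submitters' processing notes, the tools were HISAT2 2.0.1, cutadapt 1.9.1, DESeq2 and HTSeq 0.6.1, on build GRCm39. Which annotation, strand setting and filters were applied is not stated in the sources used here. The authors deposited whole-number read counts per gene, not normalized, and FPKM values rounded to 2 decimals. Of 56691 lines, 2639 had no name (0.0889% to 0.0976% of counts) and were left out. For 77 repeated names the line with the highest mean count was kept. A further 6 columns, of 3 libraries that no label names, were not used.

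Group means over all 9 libraries were fitted with edgeR 4.0.16 (TMM scaling, glmQLFit, glmQLFTest, Benjamini-Hochberg adjustment) on genes whose mean reached 0.5 FPKM, after a test on simulated data. F statistics gave the SE of each log2 change. DESeq2 1.42.0 and limma 3.58.1 served as alternatives. Library pairs within a group differed by 3.40 to 9.55 times the sampling variance, so none was a near copy.

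Members and gene lists were chosen with earlier results of these data known. The text names every member, up to 4 genes of each list with the smallest p in BMC against control, called genes that moved against their list, and the 3 genes most like each called member. A few genes that this rule selects are not reported here. The overlapping genes Rbis, Lpar6 and Rcbtb2 were added after their values were seen. Overlaps are of whole gene spans in GENCODE M21, and gene matches to promoter windows were made by symbol.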

Additional observations from a re-analysis of the deposited data

How the results depend on the processing

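Results were recomputed under 19 alternatives, 9 of which leave out 1 library. E2f1, E2f2, E2f6, E2f8 and Rbl1 kept their direction and their call against control under every alternative, as did E2f7 and Rb1 where they passed the filter, and no family gene was called in BMC+LIPUS against BMC under any.

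Genes called over all tested genes in BMC+LIPUS against BMC numbered 13, against 74 with DESeq2, 236 with no filter, 8 with a mean of at least 5 FPKM, 2 with only the 6 libraries compared, 0 and 1 with limma on log2(FPKM + 1) and log2(FPKM + 0.1), and 0 to 51 with 1 library left out. In BMC against control the split of calls was 2065 higher and 2253 lower, and 1459 and 2762 with library totals. In BMC+LIPUS against control it was 2529 and 2631, and 1869 and 3204 with library totals.

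The median log2 change of the activators was, with limma on log2(FPKM + 1), -1.44 in BMC+LIPUS against control and -1.28 for BMC, and -1.58 for BMC+LIPUS with log2(FPKM + 0.1). That of the repressors was, in BMC against control and then in BMC+LIPUS against control, -0.39 and -0.42 when scaled by library totals, -0.37 and -0.39 in the limma fit of log2(FPKM + 1), -0.39 and -0.41 in that of log2(FPKM + 0.1), and -0.25 and -0.29 with a mean of at least 5 FPKM, which leaves out E2f7. With 1 library left out, the activator median ran from -1.43 to -1.34 in BMC against control, -1.63 to -1.37 in BMC+LIPUS against control and -0.19 to 0.0065 in BMC+LIPUS against BMC. The repressor median ran from -0.37 to -0.31 and from -0.40 to -0.30 in the first and second of these.

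Values near 0 changed sign. In BMC+LIPUS against BMC, E2f3 was -0.001 with library totals and -0.0007 and -0.0008 with the limma fits. With 1 library left out, that comparison gave E2f1 from -0.19 to 0.066, E2f6 from -0.068 to 0.029 and Rb1 from -0.12 to 0.10, and E2f3 ran from -0.047 to 0.030 in BMC against control and from -0.045 to 0.033 when BMC+LIPUS was set against control. The cause was not tested.

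Replicate numbers are shared by the titles, but the correlations of deviations between same-numbered libraries ran from -0.12 to 0.31 across genes. They were over 0.1 for some pairs, highest for replicate 3 of BMC+LIPUS and BMC, and not for every pair, so the numbers were not taken to pair the libraries. With the replicate number as a block, 51 genes were called in BMC+LIPUS against BMC, or 52 with the number in the description, and E2f5 was called higher in BMC against control (log2 change 0.29, edgeR adjusted p = 0.0421, and 0.45 with the number in the description).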

Other observations

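E2F1 is also known to induce apoptosis genes, and a list of 9 such genes moved both ways. Of the 8 tested, 4 fell and 2 rose in BMC against control, with a median log2 change of -0.21. Over all tested genes, 18.8% were called lower and 17.2% higher there, so the share of the list that rose is not far from that of all genes. Pmaip1, which encodes the BH3-only protein NOXA, rose 2.37-fold, to 47.8 FPKM in BMC against 21.0 in control (edgeR adjusted p = 4.343e-05), and Ppp1r13b rose 1.48-fold. Trp73, a textbook E2F1 target, had 0 counts in all 9 libraries.

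Germline genes that E2F6 and its partners keep silent in body cells were at or near 0 in every group. E2f6 RNA was lower on the membrane, and whether that bears on these genes was not tested. Of 8 such genes none passed the filter. Smc1b had 4, 4 and 5 counts over all BMC+LIPUS, BMC and control libraries, and Tuba3a, Slc25a31, Mael and Stk31 had 0.

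The E2F words described above were present in the windows of 20 of the 40 G1/S targets with a RefSeq window. They were in those of 1 of the 23 G2/M genes (4.35%), near the 5.09% of all tested genes with a window. The letters TTTGAA, the core of the CHR element bound by MuvB, were searched on either strand. They were in the windows of 5 of those 40 (12.5%) and 15 of those 23, beside 14.6% of the 8376 tested genes with a window. The share of G1/S targets is thus near that of all. Both lists were chosen as known targets of E2Fs or MuvB, so high shares of the matching letters are not independent evidence.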
